A study of Mus musculus with 10 samples.

Results

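Glycolysis uses several enzymes that each exist as more than one gene product, and 10 such isozyme genes were followed here in a blood progenitor line. They were the hexokinase genes Hk1, Hk2 and Hk3, the phosphofructokinase genes Pfkl, Pfkm and Pfkp, the pyruvate kinase genes Pklr and Pkm, and the lactate dehydrogenase genes Ldha and Ldhb. Membership was by enzyme name and no measured value entered the rule, though earlier results of these data were known when the members were chosen. A probe counted as a member's probe when the RefSeq accession printed for it on the array was paired with that symbol in a RefSeq gene table. This gave 14 probes for the 10 genes, out of 20660 named genes with 27235 probes. Hk1 and Pfkp had 2 probes each and Ldha had 3. For these the brightest probe was used, and the other members had a single probe. By the scanner software's own call, 9 of the 10 members were well above background on 2 or more arrays, and these were tested among 14200 genes. Ldhb was well above background on 0 arrays.

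RNA came from EML-C1, an established mouse line of blood progenitors that can form erythroid and myeloid cells, and was hybridised to 1-colour oligonucleotide arrays. Untreated cells at day 0 gave 1 array. The EPO arm received 10 ng/ml erythropoietin (EPO), the hormone of red cell formation. The IL-3/GM-CSF arm received 10 ng/ml IL-3 with 10 µM all-trans retinoic acid, and 10 ng/ml GM-CSF was added only after day 3, so its day 3 arrays had seen no GM-CSF. The combined arm received the factors of both. Each arm gave a Sca1-low and a Sca1-high fraction, sorted by a surface protein of progenitors, at day 3. It also gave 1 array at day 6, where no Sca1 fraction is named. All groups grew in the same serum-containing medium with conditioned medium of a BHK/MKL line, and all came from a single cell line. Each of the 10 conditions had 1 array, and duplicates, which the design text describes, were not analysed here. Without replicates, the p-values below weigh each mean against how unevenly the treatments or populations showed it. They carry no replicate error.

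Hexokinases add a phosphate to glucose and trap it in the cell. Phosphofructokinase commits the sugar to glycolysis, pyruvate kinase makes pyruvate and ATP in the last step, and lactate dehydrogenase interconverts pyruvate and lactate. Red cells, which lose their mitochondria, live on glycolysis: their hexokinase is the Hk1 product, and their pyruvate kinase is the red cell form of Pklr, made from a start upstream of the liver form's start. Pkm gives the pyruvate kinase of most other tissues, including myeloid cells, and Hk3 is a hexokinase known from granulocytes and monocytes.

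The starts of Pklr, Pfkm and Pkm are shown because Pklr and Pfkm were called higher in Sca1-low cells while Pkm lay lower there (values below), and because the Pklr gene has separate red cell and liver starts. RefSeq promoters on GRCm38.p6 gave 17 starts for all 10 members, each with 250 bases before and 50 after the start. Both strands were searched for the letters AGATAA and TGATAA, which the erythroid factor GATA1 is known to bind. A match was held by 5 of the 17 starts, 1 of Pklr, 1 of Pkm and 3 of the 4 of Pfkm. The windows of neighbouring Pfkm starts, chr15:98108221-98108520 and chr15:98108306-98108605, overlap and share an AGATAA that was counted at both. Of 32851 promoters of the same length 18.6% held a match. The 150 bases before 4 of these starts follow, 5′ to 3′ on the plus strand, with matches in capitals.

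Pklr upstream start, chr3:89135992-89136141: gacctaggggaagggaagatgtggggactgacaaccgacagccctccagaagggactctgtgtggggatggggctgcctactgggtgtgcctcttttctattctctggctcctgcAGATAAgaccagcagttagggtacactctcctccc
Pklr downstream start, chr3:89136473-89136622: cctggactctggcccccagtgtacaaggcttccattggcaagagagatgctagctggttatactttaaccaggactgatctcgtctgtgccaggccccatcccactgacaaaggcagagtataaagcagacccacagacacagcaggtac
Pfkm first start, chr15:98092439-98092588: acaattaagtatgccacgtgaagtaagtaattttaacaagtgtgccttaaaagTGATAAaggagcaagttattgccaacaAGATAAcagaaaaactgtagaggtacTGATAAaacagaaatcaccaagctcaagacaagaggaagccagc
Pkm first start, chr9:59656426-59656575: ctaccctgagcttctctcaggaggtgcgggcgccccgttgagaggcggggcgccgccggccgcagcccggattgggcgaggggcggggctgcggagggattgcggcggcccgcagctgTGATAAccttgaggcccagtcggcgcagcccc

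The Pklr starts lie 481 bases apart. The upstream start held AGATAA at position -35, counted from the start, and the downstream start held no match to this motif or to the other motifs searched. Pfkm carried 3 matches, beginning at -97, -70 and -44 from its first start, and Pkm carried 1, beginning at -32 from its first start. No start of Hk1, Hk2, Hk3, Pfkl, Pfkp, Ldha or Ldhb held the letters. Other motifs were CCNCNCCC (the CACCC box of KLF factors, in 49.5% of promoters), ACGTG (the core of a hypoxia response element, 19.6%), TTNNGNAA (C/EBP, 40.7%) and GAGGAA (PU.1, 28.3%). GAGGAA was found at 6 of the 17 starts (of Hk1, Hk3 and Pfkm) and ACGTG at 7 (of Hk1, Hk2, Hk3, Ldha, Pfkm and Pkm). The overlapping Pfkm windows also share a GAGGAA that was counted at both. CCNCNCCC was found at 10 starts and TTNNGNAA at 8. A match describes letters in a window and is not a binding site, and the probes cannot tell which start a transcript came from.

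Levels are processed signals on the log2 scale, with the array's own 75th percentile set to 0. They compare arrays for a given probe, and levels of different probes are never set against each other. The 75th percentile lay between 309 and 736 intensity units, and 78.5% to 95.0% of the tested genes were well above background on an array, lowest at EPO day 6. No member was saturated on any array. Arrays came on 3 slides. Each pair of fractions shared a slide, while EPO day 6 and combined day 6 shared a slide with untreated cells and IL-3/GM-CSF day 6 lay on another. With quantile normalization the median over all genes of EPO Sca1-low minus untreated went from 0.18 to -0.12, so small differences from untreated cells depend on the scaling.

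Marker lists show what kinds of cells the arrays held. All 7 progenitor markers were well above background in untreated cells. The log2 summed level of 12 erythroid markers lay at 9.85 to 11.08 in the Sca1-low fractions, 8.47 to 8.90 in the Sca1-high fractions, 11.05 at EPO day 6 and 6.79 at IL-3/GM-CSF day 6. For 13 neutrophil markers it lay at 9.19 in untreated cells, 3.83 to 4.48 in Sca1-low and 8.52 to 9.64 in Sca1-high. It was 4.00 at EPO day 6, and 11.61 and 11.31 at IL-3/GM-CSF and combined day 6. Mpo and Ctsg made up most of it in untreated cells (8.24 and 8.09) and in EPO Sca1-high cells (8.40 and 8.67). In the latter, S100a8 and Ngp were not well above background. The neutrophil markers Mmp8 and Fcnb were not well above background on any day 3 array. For 7 progenitor markers, which include the sorting marker Ly6a, the log2 sum lay at 3.17 to 3.48 in Sca1-low and 6.16 to 7.41 in Sca1-high. Between fractions 10 of 12 erythroid markers were called higher, and lower calls were made for 4 of 7 progenitor, 4 of 7 monocyte, 3 of 13 neutrophil, 2 of 5 lymphoid, 4 of 8 mast cell and 2 of 6 megakaryocyte markers. Of all genes 4.09% were called higher and 6.99% lower. None of 8 proliferation markers was called in this limma test, and 0 had an unadjusted p under 0.05, against 31% of all genes. The part of a changed cell mixture in the isozyme differences was not tested, and fewer cells of a type cannot be told apart from less RNA per cell in such bulk samples.

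Among the hexokinases, Hk3 and Hk2 were lower in Sca1-low than in Sca1-high cells under every treatment. Hk1, by its brighter probe, stayed within a narrow range on all 10 arrays. Hk3 spanned 7.64 log2 units over the 9 arrays where it was well above background. Hk2 spanned 5.25 over all arrays, more than 94.3% of tested genes. The span of Hk1 on its brighter probe was 1.05, against a median of 1.56 for all genes.

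Hk3 lay at 0.51 in untreated cells. At day 3 it read -4.28, -2.73 and -3.89 in the Sca1-low fraction of the EPO, IL-3/GM-CSF and combined arms, and 0.79, 3.53 and 2.30 in the Sca1-high fraction. At day 6 the levels were -2.66, 3.75 and 2.95 in the same order. Every Sca1-low array was thus below every Sca1-high array, and at day 6 the EPO array stood apart from the arrays with IL-3/GM-CSF. How many of all genes showed no overlap between the fractions was not counted, for this and the genes below. The EPO Sca1-low signal was not well above background, so its pair gives only a bound, at least 23.0-fold lower in Sca1-low. The other pairs were 76.6-fold and 72.8-fold lower. Across the 6 day 3 arrays the difference was -5.84 (SE 0.32, limma adjusted p = 0.00439, treatment as a block), and -4.28 with normexp and quantile normalization (adjusted p = 0.00408).

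Hk2, the hexokinase of muscle and of many growing cells, lay at 1.87 in untreated cells. Its day 3 levels were -0.74, -0.05 and -0.41 in Sca1-low and 1.81, 2.13 and 1.44 in Sca1-high cells, in the order of treatments above. At day 6 it read -2.48, 2.77 and 2.15. The fractions did not overlap, and EPO day 6 was the lowest array of all. The difference between fractions was -2.19 (SE 0.23, limma adjusted p = 0.0118), with folds of 5.85, 4.52 and 3.61.

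Hk1 lay at 6.33 in untreated cells. In Sca1-low cells it read 6.34, 6.54 and 6.49 and in Sca1-high cells 6.39, 5.96 and 5.84. At day 6 the levels were 6.88, 5.88 and 5.88. The fractions overlapped, and the difference of 0.40 did not pass the test (95% interval -0.24 to 1.03, limma adjusted p = 0.324). Its dimmer probe followed the same course, with r = 0.90 over the 10 arrays, but spanned 1.48, near the median span of all genes. At EPO and IL-3/GM-CSF day 6 this probe read 1.84 and 0.50.

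**Figure D1:**
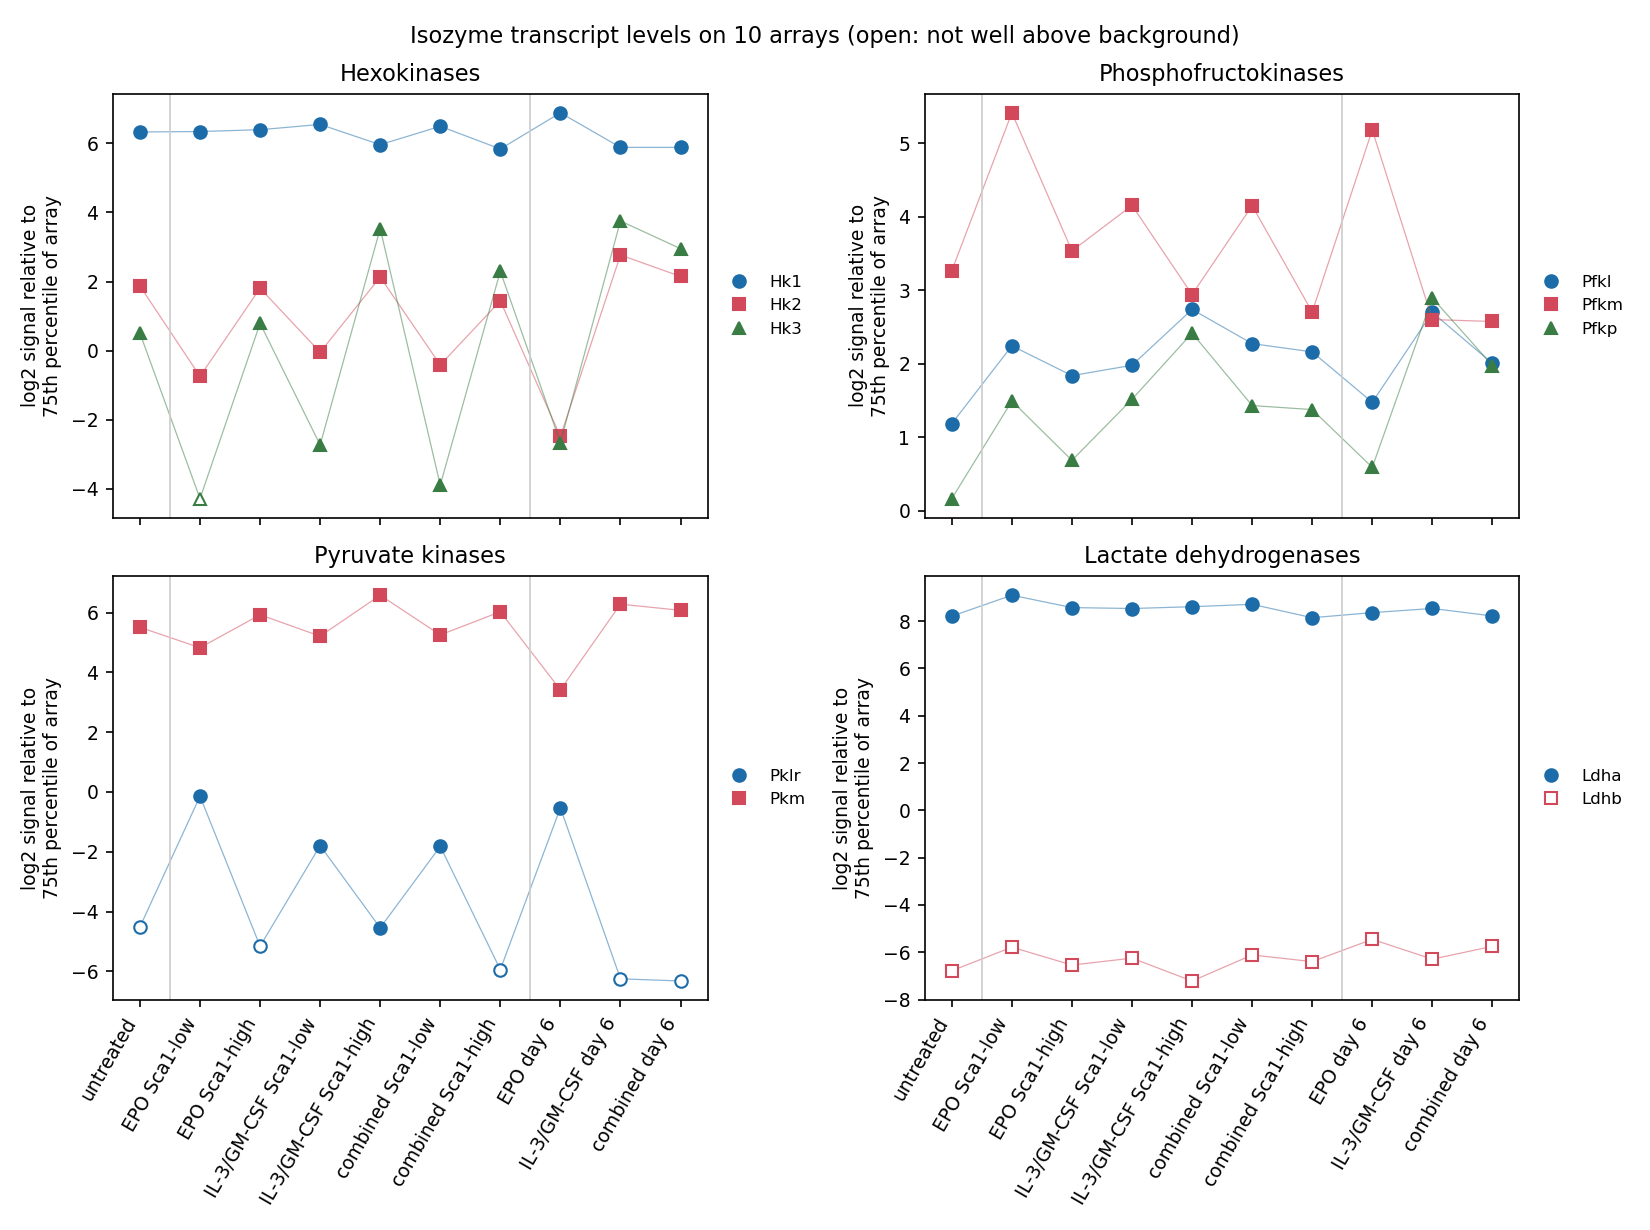
Level of each isozyme gene on the 10 arrays, as log2 signal relative to the 75th percentile of the array, in 1 panel per enzyme; each point is 1 array, open points are not well above background, and thin lines only join points of a gene. Heights of different genes are not comparable. Hk3, Hk2 and Pklr alternate between Sca1-low and Sca1-high, Hk1 and Ldha stay within 1.05 and 0.95 units, and Ldhb is open throughout.

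The ratio of 2 isozymes on an array is free of the scaling factor of that array, though not of background correction or quantile normalization. The log2 ratio of Hk2 to Hk1 in Sca1-low minus Sca1-high cells was -2.50, -2.76 and -2.51 (mean -2.59, SD 0.15, n = 3 treatments). Relative to Hk1, Hk3 was at least 22.2-fold lower in EPO Sca1-low cells, and 115.0-fold and 114.8-fold lower in the others. The gap was also wider for Hk3 than for Hk2: their ratio differed by -4.08 with IL-3/GM-CSF and by -4.33 with all factors combined, and was at least 3.94-fold lower under EPO. With 3 treatments the exact sign-flip permutation test (two-sided) cannot go below p = 0.25, and it gave 0.25 for each of these ratios. At day 6 the ratio of Hk2 to Hk1 was 76.2-fold lower under EPO than under IL-3/GM-CSF, and that of Hk3 to Hk1 was 170.5-fold lower, with 1 array on each side and no test.

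Among the phosphofructokinases, Pfkm was higher in Sca1-low cells while Pfkl and Pfkp showed no common direction. Pfkm encodes the muscle form, which is also a subunit of the red cell enzyme together with the liver form encoded by Pfkl. Pfkm lay at 3.27 in untreated cells. Its levels were 5.42, 4.16 and 4.15 in Sca1-low and 3.54, 2.94 and 2.70 in Sca1-high cells, in the same order of arms. At day 6 it read 5.18, 2.60 and 2.58. All Sca1-low arrays were above all Sca1-high arrays, and EPO Sca1-low and EPO day 6 were the highest. The difference between fractions was 1.51 (SE 0.23, limma adjusted p = 0.0250), with folds of 3.68, 2.32 and 2.73. Without the combined pair of arrays the adjusted p was 0.142.

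Pfkl lay at 1.18 in untreated cells, lower than on any treated array. It read 2.24, 1.98 and 2.27 in Sca1-low and 1.84, 2.74 and 2.16 in Sca1-high cells, and 1.47, 2.70 and 2.00 at day 6. The fractions overlapped, with differences of 0.41, -0.76 and 0.11 by treatment and a mean of -0.08 (95% interval -0.87 to 0.71, limma adjusted p = 0.873). Without the IL-3/GM-CSF pair the mean was 0.26.

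Pfkp, the platelet form, was also lowest in untreated cells, at 0.16. Sca1-low cells gave 1.49, 1.52 and 1.43 and Sca1-high cells 0.68, 2.42 and 1.37, and day 6 gave 0.59, 2.90 and 1.98. IL-3/GM-CSF Sca1-high and day 6 were its highest arrays. The mean difference between fractions was -0.01 (SE 0.38, limma adjusted p = 0.986), made of 0.81, -0.90 and 0.06, and it was 0.43 without the IL-3/GM-CSF pair. The dimmer Pfkp probe did not follow this course: it spanned 0.98 against 2.73, correlated with the brighter probe at r = 0.26, and read -1.56 at EPO day 6 and -1.86 at IL-3/GM-CSF day 6. Statements on Pfkp therefore hold for the brighter probe only.

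The log2 ratio of Pfkl to Pfkm in Sca1-low minus Sca1-high cells was -1.48, -1.97 and -1.34 (mean -1.60, SD 0.34, n = 3 treatments). For Pfkp to Pfkm it was -1.07, -2.11 and -1.39 (mean -1.53, SD 0.53). For Pfkp to Pfkl, which had no common sign, it was 0.40, -0.14 and -0.06 (mean 0.07, SD 0.29). The exact sign-flip permutation test gave 0.25 for the ratios to Pfkm, its smallest value, and 1 for Pfkp to Pfkl. At day 6 the Pfkl to Pfkm ratio was 14.0-fold lower under EPO than under IL-3/GM-CSF, and the Pfkp to Pfkm ratio 29.7-fold lower.

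The pyruvate kinases differed in opposite directions. Pklr was well above background on 5 of 10 arrays, namely IL-3/GM-CSF Sca1-high, EPO day 6 and the 3 Sca1-low arrays. Its Sca1-low levels were -0.14, -1.79 and -1.82, with EPO first and the combined arm last. In Sca1-high cells it read -5.16, -4.54 and -5.94, of which only the IL-3/GM-CSF value was well above background. Untreated cells gave -4.51, and day 6 gave -0.53, -6.25 and -6.32. The untreated, IL-3/GM-CSF day 6 and combined day 6 levels were not well above background. EPO Sca1-low and EPO day 6 were thus the highest arrays.

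By the processed signals, Pklr was at least 21.6-fold higher in Sca1-low than Sca1-high cells under EPO. It was 6.73-fold higher under IL-3/GM-CSF and at least 9.04-fold under the combined treatment. The 6.73-fold rests on a Sca1-high signal of 26.7 intensity units, dimmer than the untreated 32.2, which was not well above background. The fit of the 6 arrays, which took dim signals at their measured values, gave 3.96 (SE 0.47, limma adjusted p = 0.0141). With normexp background correction and quantile normalization it was smaller, at 1.70 (SE 0.32, limma adjusted p = 0.0260), so the folds above hold for the main processing only. The erythroid marker sum moved the same way, as given above, and its part in this difference was not tested.

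Untreated cells had a Pkm level of 5.51. Sca1-low cells read 4.83, 5.21 and 5.25 and Sca1-high cells 5.93, 6.58 and 6.03. At day 6 Pkm read 3.42 under EPO and 6.28 and 6.08 in the other arms. The fractions did not overlap, and EPO day 6 was the lowest array by 1.41. The difference between fractions was -1.08 (SE 0.22), which just missed the threshold of 0.05 (limma adjusted p = 0.0504). It passed with quantile normalization (adjusted p = 0.0336), with normexp background correction and quantile normalization (0.00922), with the mean of all probes (0.0470) and among genes well above background on all 10 arrays (0.0114). It did not pass without a filter on dim probes (0.0802), in the 9-array fit (0.265), or without the EPO (0.0641), IL-3/GM-CSF (0.177) or combined pair (0.206).

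Relative to Pkm, Pklr was at least 46.4-fold higher in Sca1-low than in Sca1-high cells under EPO, 17.4-fold under IL-3/GM-CSF and at least 15.5-fold under the combined treatment. The exact sign-flip permutation p was 0.25, its smallest value with 3 treatments. At day 6 the Pklr to Pkm ratio was at least 93.4-fold higher under EPO than under IL-3/GM-CSF. Between combined and IL-3/GM-CSF day 6 no fold can be given, since Pklr was not well above background on either array.

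**Figure D2:**
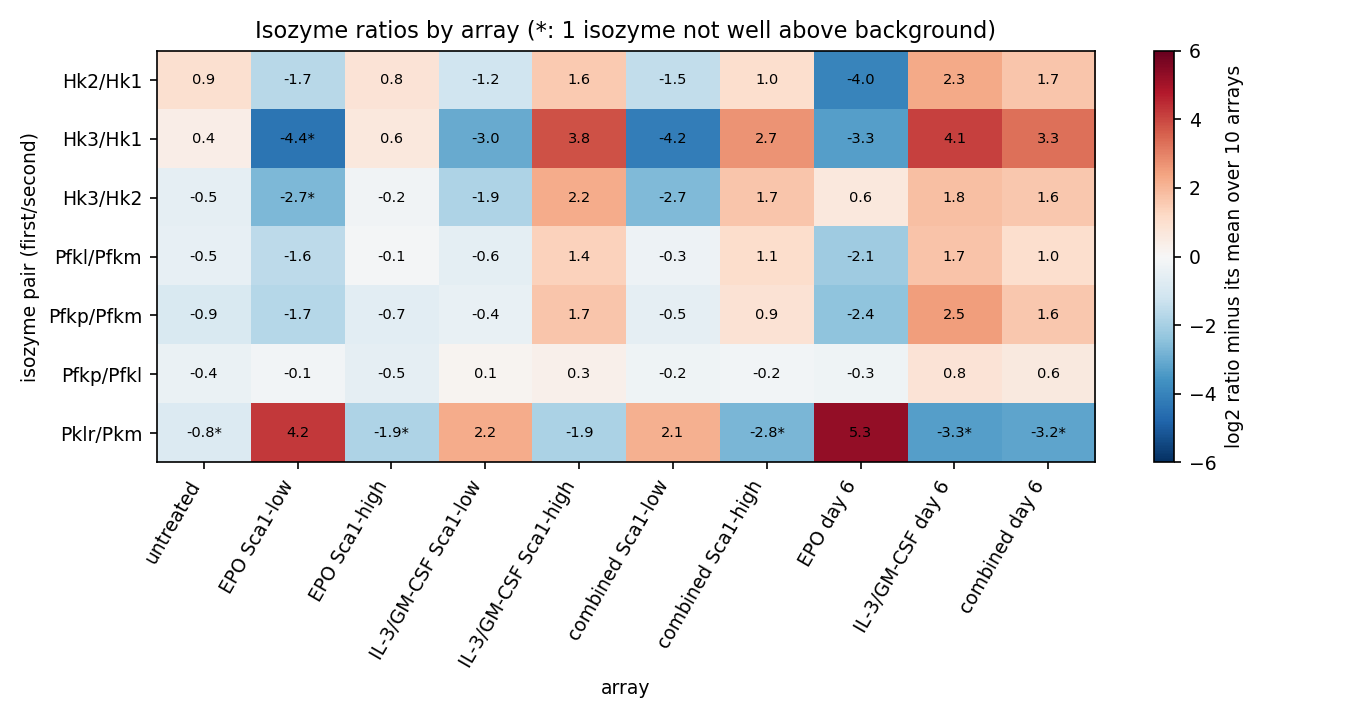
Log2 ratio of isozyme pairs on each of the 10 arrays, minus the mean of that ratio over the arrays, so that red means a relatively high first gene; stars mark ratios with 1 isozyme not well above background. The Pklr/Pkm row is positive on the Sca1-low and EPO day 6 arrays and negative on the others, while Hk2/Hk1 and Hk3/Hk1 show the opposite signs.

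Lactate dehydrogenase, by the brightest Ldha probe, differed least between arrays. Ldha, the muscle form, lay at 8.21 in untreated cells. It read 9.09, 8.53 and 8.71 in Sca1-low, 8.57, 8.61 and 8.14 in Sca1-high cells, and 8.36, 8.53 and 8.22 at day 6. Its span of 0.95 was wider than that of only 18.5% of tested genes. The fractions overlapped and differed by 0.34 (95% interval -0.28 to 0.96, limma adjusted p = 0.377). The 3 Ldha probes correlated at r = 0.81 to 0.98. The dimmer ones spanned 1.05 and 0.91. At EPO and IL-3/GM-CSF day 6 they read 3.26 against 4.14 and 5.06 against 5.83, a wider gap than on the brightest probe. Ldhb, the heart form, gave levels of -7.21 to -5.45 and signals of 4.20 to 12.5 intensity units, not well above background on any array, so no ratio of the pair was formed.

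Across members, 4 of 9 were called between the fractions: Pklr and Pfkm higher and Hk3 and Hk2 lower in Sca1-low cells. Of all tested genes 11.1% were called, 4.09% higher and 6.99% lower. The median difference was -0.01 for the members and 0.17 for all genes. The calls depended on the IL-3/GM-CSF pair: without it limma called 0 members and 0 genes, with adjusted p = 0.0550 for Hk3 and for Pklr. An unadjusted p under 0.05 was then reached by 5 members and by 24.2% of all genes. The differences were then -5.63 for Hk3, -2.20 for Hk2, 4.57 for Pklr and 1.66 for Pfkm. Without the combined pair 3 members were called (3.32% of all genes), and without the EPO pair 4 (16.2%). In an additive fit of all 9 treated arrays, where differences confined to a population count as error, 0 members and 0% of all genes were called. An unadjusted p under 0.05 was reached there by 3 members and by 25.2% of all genes.

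**Figure D3:**
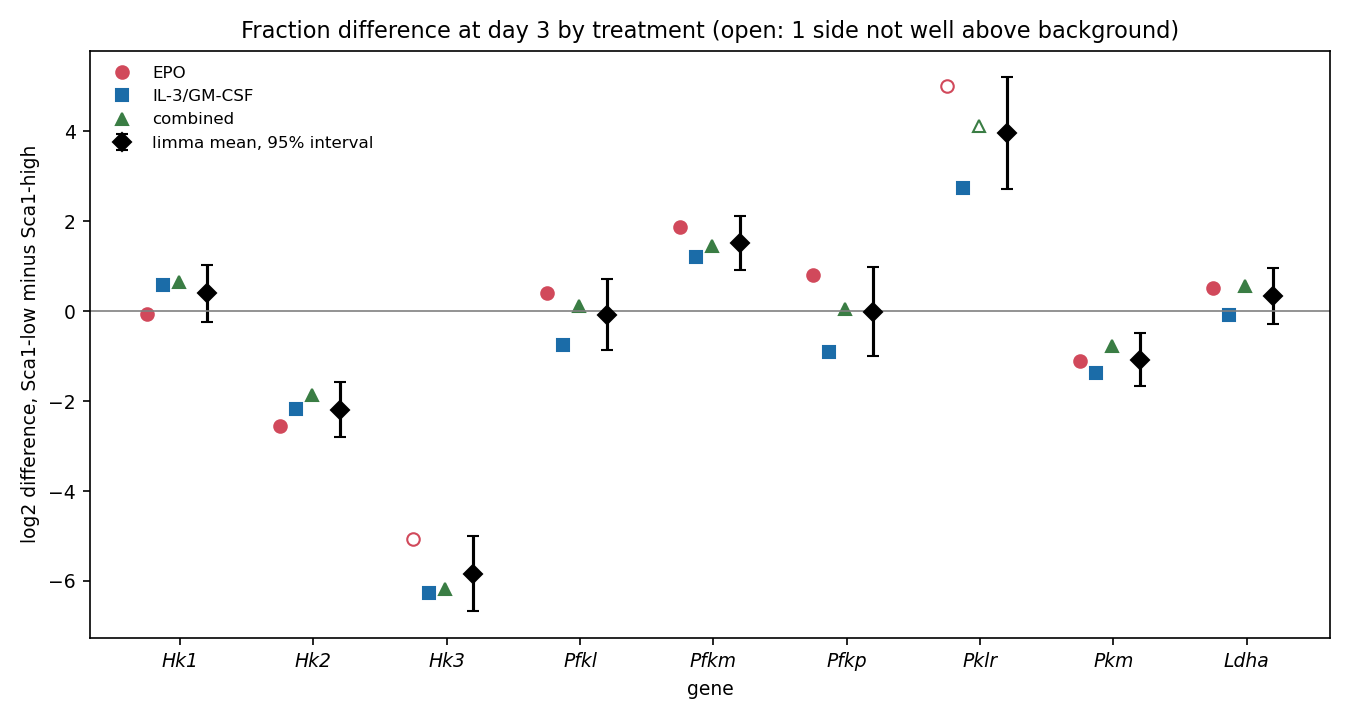
Log2 difference between Sca1-low and Sca1-high cells at day 3 for the 9 tested isozyme genes; coloured points are the 3 treatments (1 array per fraction), open where 1 side was not well above background, and black diamonds are the limma mean with its 95% interval. Hk3, Hk2 and Pkm lie below 0 and Pfkm and Pklr above 0 under all treatments, while Pfkl and Pfkp change sign between treatments.

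Between single arrays of a pair, members at least 2-fold apart, with the higher side well above background, numbered 2 higher and 3 lower in Sca1-low cells under EPO (24.2% of all genes, 12.2% higher and 12% lower). There were 2 and 3 under IL-3/GM-CSF (20.7%, as 9.27% and 11.4%) and 2 and 2 in the combined arm (22%, as 11.4% and 10.6%). Pkm made the difference, at 1.71-fold lower under the combined treatment against 2.15-fold and 2.59-fold in the other arms.

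The EPO and IL-3/GM-CSF arms were compared over all populations with an additive limma fit of the 9 treated arrays. It called 0 of 9 members, 3 of which had an unadjusted p under 0.05, and 0.00704% of all genes (1 gene, with 2682 at an unadjusted p under 0.05). The differences were -3.57 for Hk3 (SE 1.01, adjusted p = 0.211), 1.48 for Pfkm (SE 0.41, adjusted p = 0.210) and -1.35 for Pfkp (SE 0.43, adjusted p = 0.220). Hk2 differed by -2.09 (SE 1.04), Pklr by 2.25 (SE 1.14) and Pkm by -1.30 (SE 0.55), with limma adjusted p-values between 0.269 and 0.319. Pfkl, Hk1 and Ldha differed by -0.62, 0.41 and 0.12. The sign for Ldha turned to -0.49 with quantile normalization.

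The separate populations show where the arms differed. In Sca1-high cells Hk3 was at 0.79 under EPO and 3.53 under IL-3/GM-CSF, and Hk2 at 1.81 and 2.13. At day 6 the gaps were wider, with 3 members at least 2-fold higher and 5 at least 2-fold lower under EPO, where 30.2% of all genes passed this fold (16.2% higher and 14.1% lower). Hk3 was 85.2-fold lower, Hk2 38.1-fold, Pkm 7.28-fold, Pfkp 4.95-fold and Pfkl 2.34-fold lower. Pfkm was 5.99-fold higher, Pklr at least 12.8-fold and Hk1 2.00-fold higher, and Ldha differed by -0.18 on its brightest probe. The EPO and IL-3/GM-CSF day 6 arrays lay on different slides, so slide and arm cannot be told apart in this pair.

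Between the combined and IL-3/GM-CSF arrays at day 6, 0 members were at least 2-fold apart, against 5.38% of all genes (2.49% higher, 2.89% lower), so this count is near the share over all genes. The largest differences among members above background were -0.92 for Pfkp and -0.80 for Hk3. Combined against EPO day 6, which shared a slide, gave 4 members at least 2-fold higher and 3 lower, with 26% of all genes past this fold (12.9% higher, 13.1% lower). Hk3 was 48.9-fold and Hk2 24.8-fold higher in combined cells, and Pfkm was 6.10-fold and Pklr at least 28.6-fold lower.

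Treated arrays were set against the single untreated array, which all 9 differences share. EPO Sca1-high cells differed least: 0 members were at least 2-fold apart, near the share over all genes (4.21%, 2.95% higher and 1.26% lower). In EPO Sca1-low cells 4 members were higher and 2 lower (33.4%, as 18.5% and 14.9%). Pklr was 20.7-fold and Pfkm 4.44-fold higher, and Hk3 at least 18.9-fold and Hk2 6.12-fold lower. The Pklr fold is no bound. Its untreated signal was not well above background but lay above the limit used for dim signals, and was taken as measured. IL-3/GM-CSF Sca1-low cells gave 2 higher and 2 lower (16.5%, as 7.46% and 9%) and combined Sca1-low cells 3 and 2 (19.8%, as 9.08% and 10.7%). Hk2 and Hk3 were the lower members in each Sca1-low fraction, and Pklr and Pfkp were among the higher ones.

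The Sca1-high fractions with IL-3 had no member at least 2-fold lower, a count near the shares over all genes (6.16% and 6.01%). Under IL-3/GM-CSF 4 members were higher and 0 lower (14.1%, as 7.98% and 6.16%): Hk3 by 8.14-fold, Pfkp by 4.77-fold, Pfkl by 2.94-fold and Pkm by 2.10-fold. Under the combined treatment 2 were higher and 0 lower (13.2%, as 7.15% and 6.01%), Hk3 by 3.46-fold and Pfkp by 2.32-fold. The monocyte marker sum was 7.98 and 7.81 in these fractions against 5.94 in EPO Sca1-high and 5.47 in untreated cells. It was also 6.99 in combined Sca1-low cells, where Hk3 was at -3.89. There Itgam alone read 6.94, while Itgax read -2.97 and Lyz2 and Cd14 were not well above background. The neutrophil sum in combined Sca1-high cells, 8.52, was below that of untreated cells, 9.19, and Mpo and Ctsg made up most of both. Mpo, Ctsg and Elane read lower there than in untreated cells (7.03, 7.16 and 1.91 against 8.24, 8.09 and 2.54). Cebpe and Prtn3 read higher (4.02 and 3.36 against 1.04 and -0.84). So did S100a9 and Stfa1 (4.51 and 5.14), dim in untreated cells, and S100a8, Ltf, Ngp and Camp. The part of these cell types in the Hk3 difference was not tested.

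At day 6 EPO gave 2 members higher and 3 lower than untreated cells (22.7%, as 11.6% and 11.2%). Hk2 was 20.5-fold, Hk3 8.99-fold and Pkm 4.26-fold lower, Pfkm was 3.78-fold and Pklr 15.8-fold higher, and Hk1 differed by 0.56. The Pklr fold again took the dim untreated signal as measured and is no bound. IL-3/GM-CSF day 6 gave 3 higher and 0 lower (17.2%, as 9.52% and 7.64%), namely Hk3 by 9.48-fold, Pfkp by 6.65-fold and Pfkl by 2.86-fold. Combined day 6 gave 2 higher and 0 lower (13.2%, as 7.11% and 6.11%), Hk3 by 5.44-fold and Pfkp by 3.51-fold. Hk3 thus stood below its untreated level under EPO and above it in the other arms.

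Day 6 was compared with the mean of the day 3 fractions in the additive fit, which called 0 members and 0% of all genes (1367 genes and 0 members at an unadjusted p under 0.05). Hk3 had the largest difference of the members, 2.06 (SE 0.88, limma adjusted p = 0.522). From the Sca1-low fraction to day 6, Hk3 read 89.2-fold higher under IL-3/GM-CSF and 115-fold higher in the combined arm, and Hk2 7.03-fold and 5.90-fold higher, with no test. Under EPO, Hk2 read 3.34-fold and Pkm 2.65-fold lower at day 6 than in Sca1-low cells, while Hk3 read at least 2.11-fold higher, as in the other arms, and Pklr differed by -0.39. Without the EPO day 6 array 3 members were called, Hk2 by 1.68, Hk3 by 3.55 and Pklr by -2.76, with 5.56% of all genes called. A fit with slide as a block also called these 3, and 4.61% of all genes. No fraction is named at day 6, so time and sort cannot be told apart. In every arm the day 6 array also lay on another slide than the day 3 arrays. The arms with IL-3 received GM-CSF only after day 3. Within an arm, time therefore cannot be told apart from slide or, with IL-3, from GM-CSF.

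Other genes of glucose metabolism were counted from lists in the same fraction test. Of 6 glucose transporter genes tested 2 were called higher and 2 lower in Sca1-low cells. The higher were Slc2a8 (1.88, SE 0.21, limma adjusted p = 0.0123) and Slc2a4 (2.58, SE 0.49, adjusted p = 0.0409), the insulin-responsive transporter, which was well above background on only 3 arrays. Its Sca1-high levels were all dim, and in the combined arm both fractions were, so only bounds of at least 2.67-fold under EPO and 2.52-fold under IL-3/GM-CSF can be given. The lower were Slc2a6 (-2.29, SE 0.42, adjusted p = 0.0387) and Slc2a1 (-1.16, SE 0.24, adjusted p = 0.0482), the common transporter of blood cells. Slc2a1 read 2.81, 3.67 and 3.49 in Sca1-low and 3.93, 5.22 and 4.32 in Sca1-high cells, without overlap. The list median was -0.66, against 0.17 for all genes.

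For the glycolytic steps without a member, limma called 0 of 11 genes tested, against 11.1% of all genes. An unadjusted p under 0.05 was reached by 4 of the 11, against 31% of all genes, and the median was -0.17. The largest differences were -1.20 for Pgam2 (adjusted p = 0.0886), 1.04 for Aldoc (0.0553) and -0.94 for Pgam1 (0.0869), the phosphoglycerate mutases and an aldolase.

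Genes that set or reverse the phosphofructokinase step leaned lower in Sca1-low cells: of 7 tested, 3 were called lower and 0 higher (list median -1.16). Fbp1 and Fbp2, the fructose bisphosphatases that run this step backwards, differed by -5.91 (SE 0.82, limma adjusted p = 0.0195) and -5.36 (SE 1.02, adjusted p = 0.0422), each well above background on 6 arrays. All Sca1-low levels of both genes were not well above background, so these differences rest on dim values. Fbp1 was at least 2.75-fold lower in Sca1-low cells under EPO, at least 69.4-fold under IL-3/GM-CSF and at least 51.2-fold in the combined arm. The bounds for Fbp2 were 1.44-fold, 83.5-fold and 20.5-fold. Pfkfb3, which makes the activator fructose 2,6-bisphosphate, differed by -1.29 (SE 0.24, adjusted p = 0.0381). Tigar, which removes this activator, differed by -1.16 and was not called (adjusted p = 0.0869).

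In the pentose phosphate pathway 1 of 8 genes was called, the ribose phosphate isomerase gene Rpia, higher by 1.41 (SE 0.24, limma adjusted p = 0.0324); the next were G6pdx at 0.74 and Taldo1 at 0.38. Among 15 genes of pyruvate and lactate handling 1 was called higher and 1 lower. Pdk2, a kinase that holds pyruvate dehydrogenase inactive, was higher by 2.14 (SE 0.20, adjusted p = 0.0094), at 1.62, 0.63 and 0.69 in Sca1-low against -0.57, -1.62 and -1.30 in Sca1-high cells. Ldhd, a lactate dehydrogenase for the D form, was lower by 2.48 but was well above background on 3 arrays only, and on none of the Sca1-low arrays. The lactate exporter Slc16a3 differed by -2.17 without a call (adjusted p = 0.0762).

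Of 8 regulators 2 were called higher and 1 lower. Klf1 and Gata1, transcription factors of the erythroid lineage, were higher by 4.18 (SE 0.33, limma adjusted p = 0.0065) and 2.66 (SE 0.26, adjusted p = 0.0097). Hif1a, the hypoxia factor known to drive many glycolytic genes, was lower by 2.25 (SE 0.26, adjusted p = 0.0134), at -1.92, -0.24 and -0.42 in Sca1-low and 0.79, 2.01 and 1.36 in Sca1-high cells. Ptbp1, Hnrnpa1 and Hnrnpa2b1, known for choosing between the Pkm splice forms, were not called. Which Pkm splice forms the probe reads was not tested. Klf1 and Gata1 also stand in the erythroid marker list.

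For the EPO minus IL-3/GM-CSF fit limma called 0 genes in every one of these lists, with 0.00704% of all genes called. The largest difference of each list was -2.93 for Slc2a9, -3.86 for Fbp1, -3.13 for the exporter Slc16a3, 4.04 for Klf1, -1.11 for Pgam2 and 1.16 for Pgls. Among the regulators Gata1 followed with 2.83 and Hif1a with -2.82. Unadjusted p-values under 0.05 were reached by 4 of 6 transporter genes, 2 of 11 other glycolytic genes, 2 of 7 of the fructose bisphosphate list, 1 of 8 of the pentose list, 3 of 15 of the pyruvate list and 4 of 8 regulators. Among all genes the share was 18.9%.

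**Figure D4:**
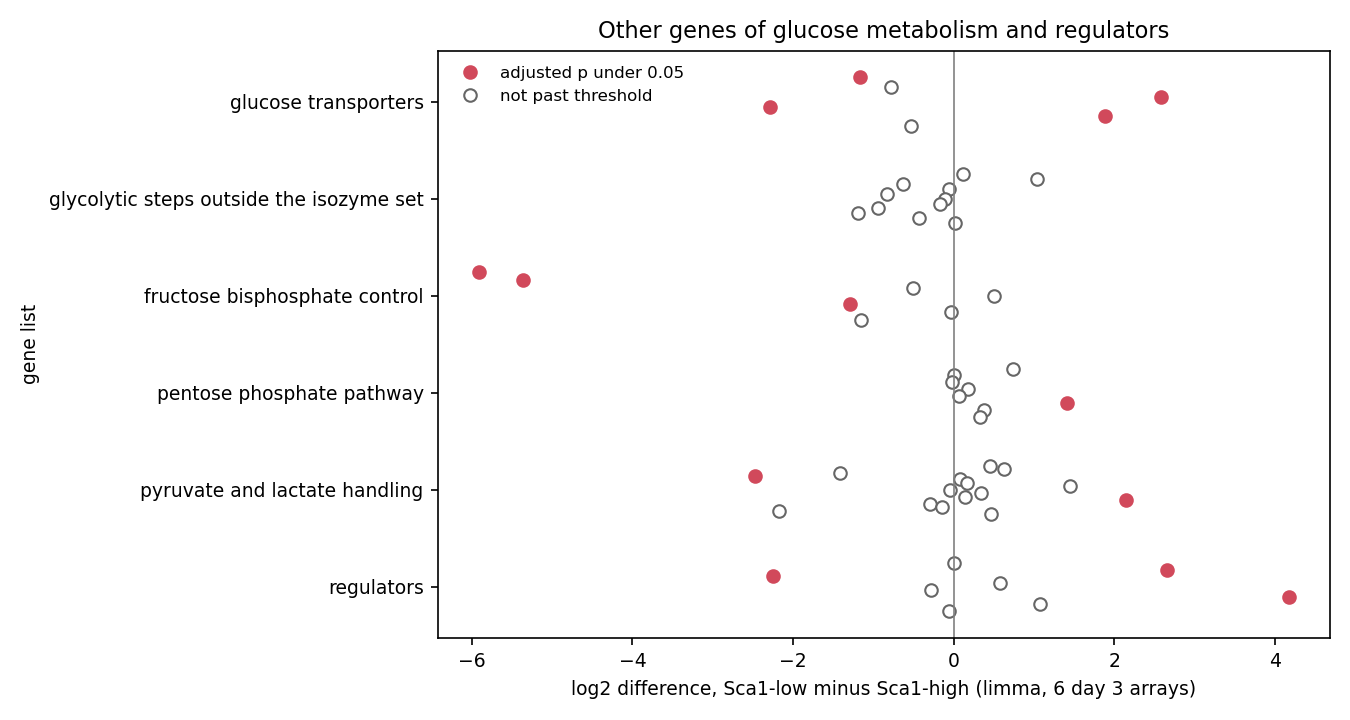
Log2 difference between Sca1-low and Sca1-high cells from the limma fit of the 6 day 3 arrays, 1 point per tested gene of each list; filled points have an adjusted p under 0.05 and vertical spread within a list has no meaning. Fbp1 and Fbp2, dim in Sca1-low cells, lie farthest to the left, at -5.91 and -5.36, and Klf1 farthest to the right, at 4.18, while the 11 other glycolytic genes are all open.

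Patterns over the 10 arrays were described by Pearson's r of levels. Points share arrays and their scaling, the fractions dominate the variation, and no p is given. Among members Pfkm and Pklr ran together (r = 0.97), as did Hk2 and Pkm (0.94) and Pfkl and Pfkp (0.91), and Pklr ran opposite to Hk3 (-0.93) and Hk2 (-0.92). Ldha was not close to any member, its highest r being 0.59 with Pfkm. Likeness was ranked among 12784 genes that were well above background on 5 or more arrays. There the genes most like Pklr were Gemin5, Zfp639 and Arrdc2 (0.99 each), most like Pfkm Ap1b1, L3mbtl2 and Necap2 (0.99 each), and most like Hk3 Rnf217, Gngt2 and Ndst1 (0.98 to 0.99). Hk2 was most like Slc5a11, Prkch and Arhgef6 (0.99 each), Pkm most like Cd79b, Kyat3 and Tuba8 (0.98 to 0.99), and Hk1 most like Zmat3 (0.99), Gt(ROSA)26Sor (0.98) and Ndufs1 (0.97). Likeness was weaker for the others: Poll (0.93), Pfkp (0.91) and Hemk1 (0.91) for Pfkl, Stoml1, Rgcc and Pim3 (0.94 to 0.95) for Pfkp, and Gm6042, Nrp and Cachd1 (0.94 to 0.96) for Ldha.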

How the data were processed

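Spot intensities were deposited by the authors as output of Agilent Feature Extraction 11.0.1.1, per the submitters' processing notes, and no reads or images were used. The deposited series matrix holds the same processed intensity values, with a largest relative difference of 0, so scale, centring and direction are known. Here spots marked as non-uniform or outliers were left out, each processed signal was divided by the 75th percentile of the array and put on the log2 scale, repeat spots were averaged and the brightest probe of a gene was kept. RefSeq accessions named 27235 of 55681 probes (98.1% of those with an NM or NR accession). A dim side was set to the higher of its array's background limit and its own value, means being of 1 array per side. This limit was the lowest level of any probe well above background on that array. The "at least" folds rest on it and hold for this processing only. A dim signal can lie above this limit, as that of Pklr in untreated cells did, so these folds are not strict bounds.

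Testing was by limma 3.58.1 (R 4.3.3) on genes that 2 or more arrays showed well above background, with Benjamini-Hochberg adjustment over 14200 genes and a threshold of 0.05; the test was checked on simulated data. The fraction fit used the 6 day 3 arrays with treatment as a block, and the other fits used 9 treated arrays, additive in treatment and population. Single arrays were compared by a 2-fold rule with no test.

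Named genes are all members, the 3 genes most like each member, and the 3 largest differences of each list in the fraction fit. For the EPO minus IL-3/GM-CSF fit the largest of each list is named, with Gata1 and Hif1a. Other called genes of the lists and single marker genes were named after their values were seen. A short gene list is not reported here. The members and lists were chosen with earlier results of these data known. Alternatives were background correction by normexp (offset 50; on median signals, since the files hold no mean signal, a change made after seeing the data) with quantile normalization, quantile normalization alone, the matrix values, no or a stricter filter, the mean of probes, no flag filter, arrays left out, a 9-array fit, slide as a block and a 1.5-fold rule.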

Additional observations from a re-analysis of the deposited data

Results flagged for a closer look

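Hk3 differed from untreated cells in opposite directions by arm at day 6. Its log2 difference was -3.17 in the EPO arm, 3.24 in the IL-3/GM-CSF arm and 2.44 in the combined arm. The difference between arms was not tested, since each value is 1 array against the same untreated array.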

How the results depend on the processing

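No paired analysis was possible because all conditions carry the same single replicate number; arrays were paired by treatment alone, in the fraction test. Precision is limited by this number, and signal near background limits Pklr and Hk3. For the difference between fractions, the count of 4 called members became 0 in the 9-array additive fit and ranged from 0 to 4 when a treatment pair was left out; Pfkp read 0.19 with the mean of all probes, and leaving out a pair gave ranges of -0.42 to 0.43 for Pfkp and -0.32 to 0.26 for Pfkl. The Hk2, Hk3, Pfkm and Pklr differences kept their sign under every alternative that gave a value. For EPO minus IL-3/GM-CSF, Ldha read -0.49 with quantile normalization, -0.57 with normexp and quantile normalization and -0.10 with the mean of all probes, and -0.0901 to 0.234 with an array left out; the count stayed 0. For day 6 minus day 3, the count of 0 ranged from 0 to 3 with an array left out (3 without EPO day 6) and was 3 with slide as a block, where Ldha read 0.23, Pfkl 0.69 and Pkm 2.78; arrays left out gave -0.33 to 0.12 for Hk1, -0.69 to 1.68 for Hk2, -0.39 to 0.0629 for Pfkl and -0.79 to 0.41 for Pkm. Against untreated cells, the 1.5-fold rule gave 1 member in EPO Sca1-high, 6 at IL-3/GM-CSF day 6 and 4 at combined day 6, and the mean of all probes gave 1 in combined Sca1-high. With normexp and quantile normalization the fraction changes of ratios were -2.18 (Hk2/Hk1), -4.39 (Hk3/Hk1), -2.21 (Hk3/Hk2) and 2.83 (Pklr/Pkm), and with the mean of all probes Pfkp/Pfkl differed by 0.0374 between EPO and IL-3/GM-CSF. The causes were not tested.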
